A study of Drosophila melanogaster with 3 samples.

Results

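The nuclear genes for the respiratory chain and ATP synthase of mitochondria were examined in syncytial Drosophila embryos 30 min after laser wounding. Members were chosen by name alone, as the genes whose current FlyBase symbol begins with ND- (complex I), Sdh (complex II), UQCR- (complex III), COX followed by a digit (complex IV) or ATPsyn (ATP synthase, also called complex V). Of 12144 probes in the deposited table, 70 carried such a symbol, and 69 of them had a value on all 3 arrays. These 69 probes read 54 genes, of 10183 features tested, with 26 genes in complex I, 6 in complex II, 3 in complex III, 8 in complex IV and 11 in ATP synthase.

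Wounded embryos were 0 to 1 h old at collection, were freed of their chorion by hand, kept in halocarbon oil, wounded several times with a laser and frozen 30 min later, and unwounded embryos went through the same handling without the laser. Embryos of both groups carried sGMCA, a fluorescent reporter that shows the actin cytoskeleton. Each of the 3 two-colour cDNA arrays held wounded RNA (Cy3) and unwounded RNA (Cy5) of 1 experiment, and the experiments are numbered 3, 4 and 5 in the labels. The paper's methods give 4 replicates of each condition at this time, whereas 3 arrays are used here. The dyes were never exchanged, so dye and wounding cannot be told apart. The study uses the syncytial embryo as a single large cell that repairs its own cortex, and the arrays asked which transcripts differ near the end of that repair.

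Each value is the deposited log2 ratio of the 2 channels, in which 1 unit is a 2-fold difference. Positive values are read as higher in wounded embryos. The table does not state this direction, which is taken from the paper. Of the genes the paper lists by name, 12 of 12 raised genes tested were above 0 here and 13 of 13 lowered genes below 0. Several means equal the log2 changes printed in the paper, in sign and size: ImpL2 1.363, geko 1.187, exu -1.167 and dhd -1.348. Others, such as CG4960 (-0.68 here), have the paper's sign but another size. If the ratio runs the other way, each direction given here turns around. A feature was called when limma's adjusted p was under 0.05 and the change was at least 1.5-fold. RNA came from whole embryos, so that fewer cells or nuclei of a kind and less RNA in each cannot be told apart.

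The respiratory chain passes electrons from NADH through complex I, or from succinate through complex II, to ubiquinone, then through complex III and cytochrome c to complex IV, which reduces oxygen. Complexes I, III and IV pump protons, and ATP synthase uses the proton gradient to make ATP. Drosophila eggs are laid with their mitochondria and with maternal RNA for most of these subunits, and the early syncytial nuclei transcribe little of their own. Several subunits also have a paralog whose symbol is that of the parent gene with L (like) added, and such paralogs of energy genes are known in flies mainly from the testis.

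One respiratory gene passed the test. UQCR-6.4, a small subunit of complex III, was lower in wounded embryos at -0.61 ± 0.16 (SD, n = 3 arrays), or 1.53-fold. The other 53 genes were not called. One called gene of 54 is 1.85%, against 2.33% of all features called in either direction, 1.68% called lower and 0.648% called higher. The median of the 54 genes was 0.02, against 0.001 for all 10183 features, with 30 genes above 0 and 24 below. At an unadjusted limma p under 0.05 there were 8 members (14.8%), 2 above and 6 below 0, against 25% of all features, 10.1% above and 14.9% below 0. The members called were 1 with no minimum fold (4.03% of all features) and at an adjusted p under 0.10 (3.13%).

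The ratios of the members lay close to 0. Of 54 genes, 48 (88.9%) had a mean between -0.25 and 0.25, against 78.3% of all features. The highest was ND-ASHI with 0.26 and the lowest UQCR-6.4. For 51 members (94.4%; 84.6% of all features) limma's 95% interval, taken gene by gene without adjustment, lay wholly inside a 1.5-fold change in either direction. The 3 members for which it did not were UQCR-6.4 (-0.83 to -0.39), ND-PDSW (-1.38 to 0.44) and COX6CL (-0.18 to 0.70).

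**Figure D1:**
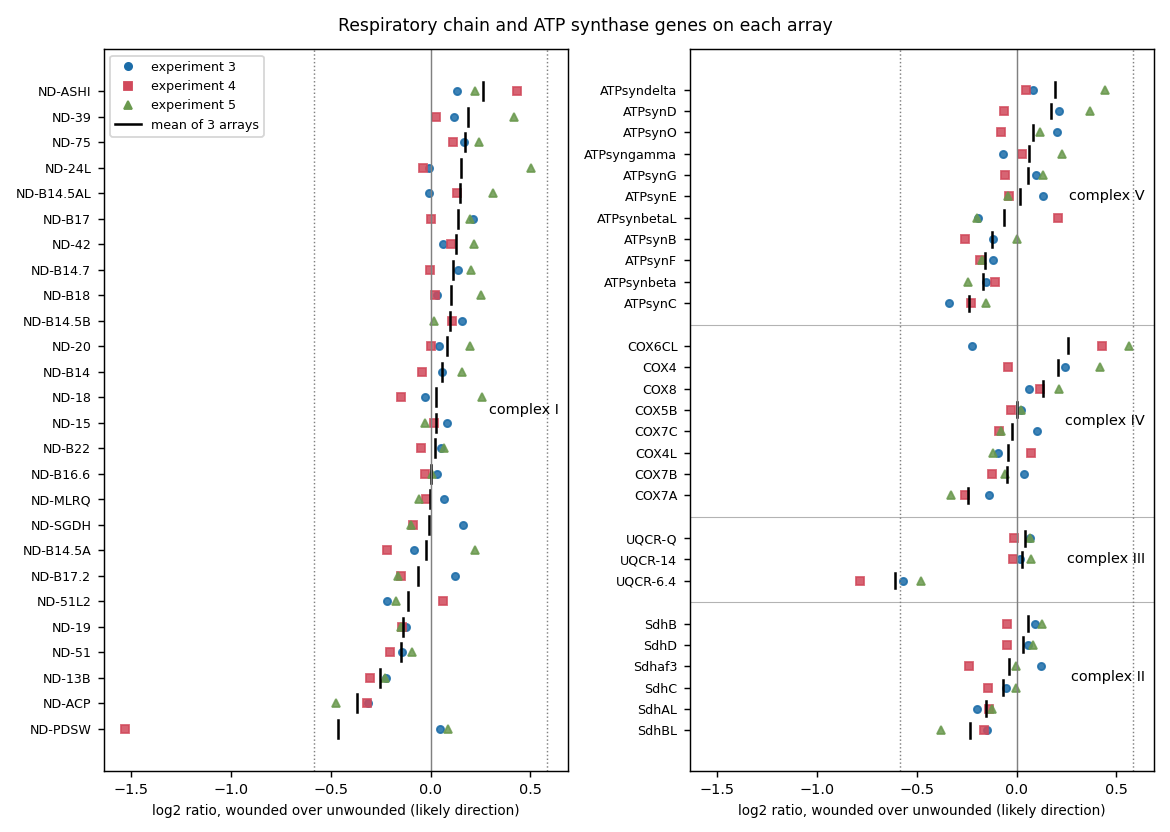
Log2 ratio (x axis) of each of the 54 genes on the arrays of experiments 3, 4 and 5 (blue circles, red squares, green triangles), grouped by complex and ordered by mean (black bar). Dotted lines mark 1.5-fold. UQCR-6.4 is the one gene with a mean beyond a dotted line, at -0.61, and ND-PDSW has a lone low value of -1.53 in experiment 4.

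The spread between arrays was small too. The median SD of a member over the 3 arrays was 0.103, against 0.127 for all features. More members than other features were averages of several probes (27.8% against 12.8%). Among features read by 1 probe, the median SD was 0.104 for 39 members and 0.130 for 8882 features. Members with the same sign on all 3 arrays numbered 22 of 54 (40.7%), 10 above and 12 below 0, against 50.3% of all features.

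**Figure D2:**
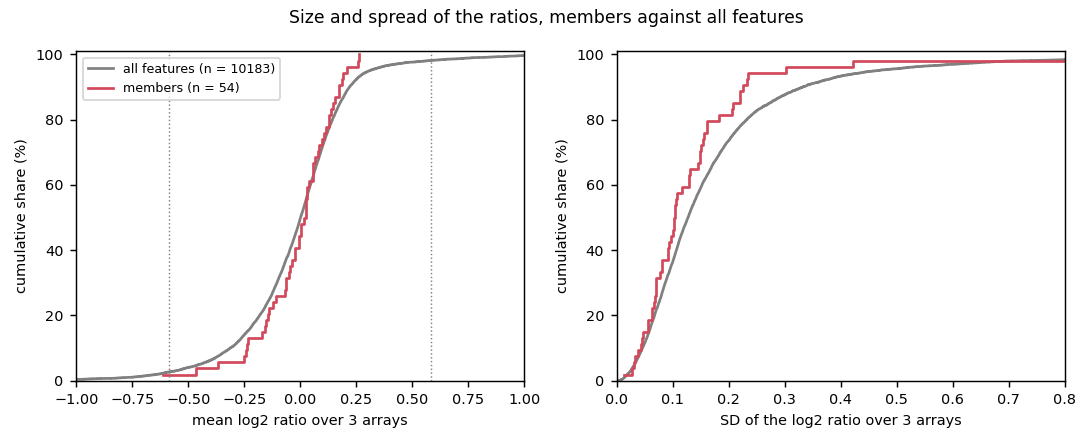
Cumulative share of genes (y axis, percent) by mean log2 ratio (left) and by SD over the 3 arrays (right) for the 54 members (red) and all 10183 features (grey); dotted lines mark 1.5-fold. The red curve climbs more steeply near 0, with 88.9% of members against 78.3% of features between -0.25 and 0.25, and ND-PDSW (SD 0.92) lies beyond the right axis.

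In complex I, 0 of 26 genes were called by limma, and 4 had an unadjusted p under 0.05 (ND-ACP, ND-13B, ND-ASHI and ND-75). The median was 0.03, with 16 genes above and 10 below 0. The core subunits read here were ND-75, ND-20 and ND-51, which carry flavin or iron-sulfur clusters that move electrons. Other core subunits, among them ND-30 and ND-49, had no probe of their own. ND-75, an iron-sulfur subunit of the arm that takes up NADH, had 0.17, 0.11 and 0.24 in experiments 3, 4 and 5 (mean 0.17 ± 0.07; limma adjusted p = 0.194). ND-51, the subunit that binds NADH and flavin, had -0.14, -0.20 and -0.09 (mean -0.15 ± 0.06; adjusted p = 0.239). These neighbours in the NADH-binding arm thus lay on opposite sides of 0 on every array, and neither passed. ND-20, which sits where ubiquinone is reduced, had a mean of 0.08 ± 0.10.

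Among the accessory subunits of complex I, the lowest with close replicates was ND-ACP. It encodes the mitochondrial acyl carrier protein, which also serves mitochondrial fatty acid synthesis. It had -0.32, -0.32 and -0.48 (mean -0.37 ± 0.09; limma adjusted p = 0.0629) and did not pass. In experiment 5 UQCR-6.4 alone among the members was lower. ND-13B, a subunit of the matrix arm, had -0.23, -0.30 and -0.23 (mean -0.25 ± 0.04; adjusted p = 0.102). At the upper end ND-ASHI, a subunit of the membrane arm, had 0.13, 0.43 and 0.22 (mean 0.26 ± 0.15; adjusted p = 0.148). ND-39, a matrix arm subunit, had 0.12, 0.03 and 0.42, so that its mean of 0.19 leans on experiment 5. The means of the 20 accessory subunits ran from -0.47 to 0.26, with a median of 0.03.

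The lowest mean in complex I, that of ND-PDSW, came from a single spot. ND-PDSW encodes an accessory subunit of the membrane arm and was read by 2 clones. Clone GM03559 had 0.06, -2.94 and 0.02 in experiments 3, 4 and 5, and clone RE65754 had 0.03, -0.12 and 0.15. The averaged gene had -0.47 ± 0.92 (limma adjusted p = 0.443). Without clone GM03559, a setting chosen after seeing the values, the mean was 0.02.

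In complex II, succinate dehydrogenase, 0 of 6 genes were called by limma, and 1, SdhBL, had an unadjusted p under 0.05. The membrane anchor SdhC had -0.05, -0.14 and -0.002 (mean -0.07 ± 0.07), and the anchor SdhD had 0.06, -0.05 and 0.08 (mean 0.03 ± 0.07). The iron-sulfur subunit SdhB had 0.09, -0.05 and 0.13 (mean 0.06 ± 0.09; limma adjusted p = 0.632). Sdhaf3, named as an assembly factor and not as a subunit, had 0.12, -0.24 and -0.004 (mean -0.04 ± 0.18). The 2 lowest means belonged to the paralogs. SdhBL had -0.15, -0.16 and -0.38 (mean -0.23 ± 0.13; adjusted p = 0.161), and SdhAL had -0.20, -0.14 and -0.12 (mean -0.15 ± 0.04; adjusted p = 0.215). SdhBL is the mean of 2 spots of 1 clone, which had -0.68 and -0.08 in experiment 5. Neither spot on its own had an unadjusted limma p under 0.05 (0.0705 and 0.0797). The median of complex II was -0.05, and 0.03 for the 3 subunits left without the paralogs and Sdhaf3. A further paralog, SdhCL, had an empty cell in experiment 4 and was not tested (0.11 and 0.35 in experiments 3 and 5).

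In complex III, ubiquinol-cytochrome c reductase, the called gene UQCR-6.4 stood apart from the other 2 genes. UQCR-6.4 had -0.57, -0.78 and -0.48 in experiments 3, 4 and 5 (limma adjusted p = 0.0403), with its lowest value in experiment 4. On each array it was lower than the other members of its complex. UQCR-14 had 0.02, -0.02 and 0.07, and UQCR-Q had 0.07, -0.01 and 0.07. Both are small subunits like UQCR-6.4, and their values surround 0. On the log2 scale 2.28% of all features had a lower mean than UQCR-6.4.

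The call for UQCR-6.4 rests on 1 clone and on all 3 arrays. A second clone, RH63179, is annotated with both UQCR-6.4 and CG42382 and was therefore kept as a feature of its own. It had -0.04, -0.32 and 0.15 (mean -0.07 ± 0.24; limma adjusted p = 0.723). The called clone, RH56961, was lower than RH63179 by nearly the same amount on each array, with differences of -0.53, -0.47 and -0.63 (mean -0.54 ± 0.08). Averaged over both clones, a setting chosen after seeing the values, the gene had -0.34 and was not called (adjusted p = 0.123). Without experiment 3, 4 or 5, the mean was -0.63, -0.53 or -0.68, and the adjusted p was 0.164, 0.0863 or 0.180. POSH, which overlaps UQCR-6.4 in the gene table, had -0.12 ± 0.09 (adjusted p = 0.352).

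In complex IV, cytochrome c oxidase, 0 of 8 genes were called by limma, 1, COX7A, had an unadjusted p under 0.05, and the median was -0.01. These genes encode the nuclear subunits that surround a catalytic core encoded by mitochondrial DNA. COX4 had 0.24, -0.04 and 0.42 (mean 0.21 ± 0.23; limma adjusted p = 0.296), and COX8 had 0.06, 0.12 and 0.21 (mean 0.13 ± 0.08; adjusted p = 0.296). COX7B had 0.04, -0.12 and -0.06 (mean -0.05 ± 0.08), and COX7C (-0.02 ± 0.11) and COX5B (0.004 ± 0.028) also lay near 0. The paralog COX4L had -0.09, 0.07 and -0.12 (mean -0.05 ± 0.10). COX6CL, another paralog, had the widest spread of the complex, with -0.22, 0.43 and 0.57 (mean 0.26 ± 0.42; adjusted p = 0.389).

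COX7A, the lowest of complex IV, was read by 2 clones that disagreed on every array. Clone RE30055 had -0.44, -0.58 and -0.73, and clone RE30424 had 0.16, 0.06 and 0.07. Their difference was -0.60, -0.64 and -0.79 (mean -0.68 ± 0.10). The averaged gene had -0.14, -0.26 and -0.33 (mean -0.24 ± 0.10; limma adjusted p = 0.131). With each probe tested on its own, RE30055 had an adjusted p of 0.0459 at a mean of -0.58, just short of 1.5-fold, and RE30424 an adjusted p of 0.399. Which clone reads the COX7A transcript was not tested.

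In ATP synthase, 0 of 11 genes were called by limma, 1, ATPsynC, had an unadjusted p under 0.05, the median was 0.02, and 11 of 11 means lay between -0.25 and 0.25. ATPsynC, the proton-carrying ring subunit, had the lowest mean, with -0.34, -0.23 and -0.15 (mean -0.24 ± 0.09; limma adjusted p = 0.132). ATPsynbeta, the catalytic subunit, had -0.15, -0.11 and -0.24 (mean -0.17 ± 0.07; adjusted p = 0.204), and ATPsynF of the membrane sector had -0.12, -0.18 and -0.17 (mean -0.16 ± 0.03; adjusted p = 0.203). ATPsynC, ATPsynbeta and ATPsynF were each below 0 on all arrays. At the other end were ATPsyndelta of the central stalk (0.08, 0.05 and 0.45; mean 0.19 ± 0.22) and ATPsynD of the peripheral stalk (0.21, -0.06 and 0.37; mean 0.17 ± 0.22). ATPsynO, which joins the peripheral stalk to the catalytic head, had 0.20, -0.08 and 0.12 (mean 0.08 ± 0.15). ATPsyndelta, ATPsynD and ATPsynO varied more between arrays than the former subunits, and the subunits of the complex did not lie on one side of 0.

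A second reading within the same arrays was available for 15 members with 2 probes each, of which 14 had 2 different clones and SdhBL 1 clone amplified again. The difference between the means of the probes had a median of 0.086, against 0.090 for all 1087 genes with 2 probes. In 9 of 15 genes it was under 0.1, as in ATPsynG (0.05 and 0.06), SdhD (0.02 and 0.04), ATPsyndelta (0.17 and 0.22) and ND-19 (-0.17 and -0.11). In 2 genes, ND-PDSW and COX7A, it was over 0.5, as it was in 4.97% of all genes with 2 probes. The next largest difference was that of ND-B14.5A, an accessory subunit of complex I. Its clone RE75088 had -0.20, -0.38 and -0.12, and clone RH26964 had 0.04, -0.06 and 0.57, so that the averaged gene lay at -0.02 ± 0.23.

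**Figure D3:**
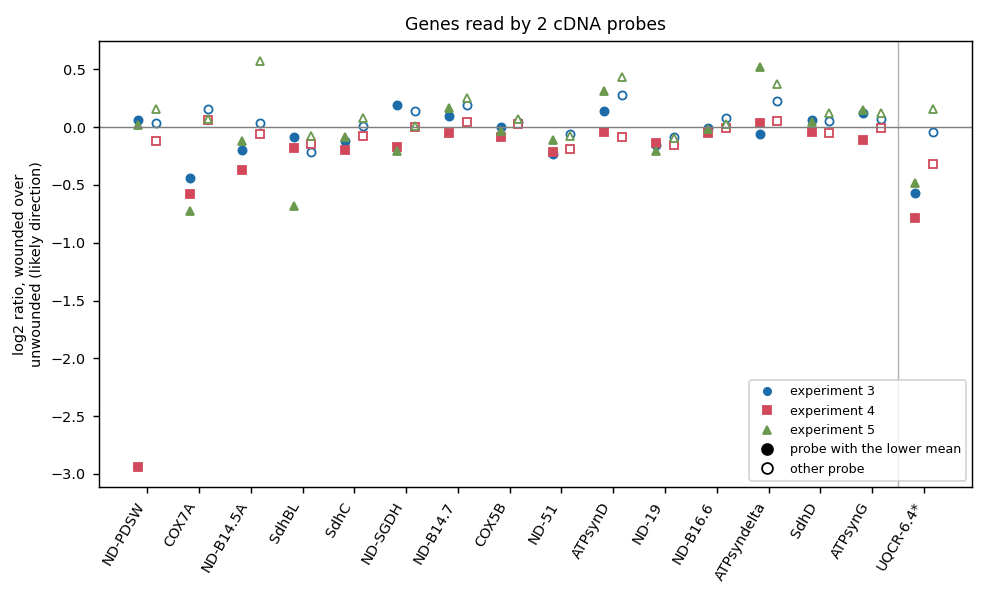
Log2 ratio (y axis) on each array for the 15 members read by 2 probes, with the probe of lower mean filled and the other open, ordered from the largest difference to the smallest. Right of the grey line, the called clone of UQCR-6.4 (filled) is set beside the clone annotated with both UQCR-6.4 and CG42382 (open, marked *). The filled symbol is the lower on all 3 arrays for COX7A, ND-B14.5A and UQCR-6.4, among others, and the ND-PDSW clones are far apart in experiment 4 alone.

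The 3 arrays did not place the members alike. The median of the 54 genes was 0.04 in experiment 3, -0.04 in experiment 4 and 0.04 in experiment 5, against 0.004, -0.01 and 0.01 for all features. Above 0 were 32, 17 and 31 of the 54 genes in experiments 3, 4 and 5. The lowest of the 3 values fell in experiment 4 for 32 members (59.3%), against 46.3% of all features. Across the 54 genes, experiments 3 and 5 correlated with Pearson's r = 0.573 (0.498 over all features), 3 and 4 with 0.282 (0.390) and 4 and 5 with 0.383 (0.315). Without ND-PDSW these were 0.573, 0.475 and 0.600. The points share arrays and are genes, not replicates, and these are descriptions with no test.

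The 8 paralogs differed among themselves from array to array. Their medians were -0.17, 0.07 and -0.12 in experiments 3, 4 and 5, whereas those of the 45 members left without the paralogs and Sdhaf3 were 0.06, -0.05 and 0.07. Experiment 4 gave the lowest value for 1 of the 8 paralogs and for 30 of those 45 genes, and the highest for 3 of the 8 and 2 of the 45. Experiment 5 gave the highest value for 4 of the 8 and 25 of the 45, and 3 paralogs were above 0 there: ND-24L (-0.01, -0.04 and 0.50 in experiments 3, 4 and 5), ND-B14.5AL (-0.01, 0.13 and 0.31) and COX6CL. The other 5, among them ND-51L2 (-0.22, 0.06 and -0.17), were below 0 in experiment 5. In pairs, SdhBL minus SdhB was -0.24, -0.12 and -0.51 (mean -0.29 ± 0.20). In experiment 5 the spots averaged for SdhBL were far apart, at -0.68 and -0.08. COX4L minus COX4 was -0.34, 0.12 and -0.54 (mean -0.25 ± 0.34). ATPsynbetaL minus ATPsynbeta was -0.04, 0.31 and 0.04 (mean 0.11 ± 0.18). ND-51L2 minus ND-51 was -0.07, 0.26 and -0.08 (mean 0.04 ± 0.20), and ND-B14.5AL minus ND-B14.5A was 0.07, 0.35 and 0.09 (mean 0.17 ± 0.16). All 5 pairs within the members had their highest difference in experiment 4, and those of SdhBL and ND-B14.5AL kept 1 sign on all arrays. A pair outside the prefixes did not share this pattern. Cyt-c1L had 0.11, 0.03 and 0.46 in experiments 3, 4 and 5, and Cyt-c1 had 0.26, 0.13 and 0.38. There the paralog was the higher only in experiment 5.

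For 6 of the 8 paralogs the clone came from the testis cDNA library (names beginning with AT). Over all 1049 AT clones on the arrays, the medians were -0.07, 0.03 and 0.04 in experiments 3, 4 and 5, and over the 9 AT clones among the members -0.09, 0.06 and 0.07. For the 2432 RE clones, from embryos, they were 0.01, -0.05 and -0.04, and for the 23 RE clones among the members 0.06, -0.05 and 0.04. The AT clones, like the paralogs, had their lowest median in experiment 3. In experiment 5 the median was 0.04 for the AT clones and -0.12 for the 8 paralogs. That of the paralogs takes in SdhBL (-0.38) and SdhAL (-0.12), which are read by clones of other libraries. Of the paralogs read by AT clones, ND-24L, ND-B14.5AL and COX6CL were above 0 there (0.50, 0.31 and 0.57). ND-51L2, COX4L and ATPsynbetaL were below 0 (-0.17, -0.12 and -0.20). The part of the library in the values of the paralogs was not tested. Of 9 tested genes known from the testis, 0 were called by limma and the median was 0.06. At an unadjusted limma p under 0.05 there were 2, against 25% of all features.

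**Figure D4:**
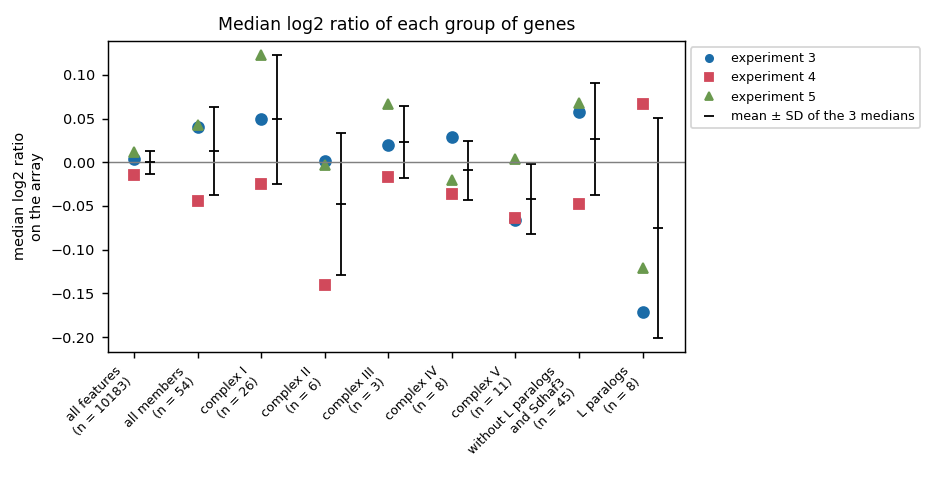
Median log2 ratio (y axis) on the arrays of experiments 3, 4 and 5 for all features, all members, each complex, the members without paralogs and Sdhaf3, and the paralogs; the bar beside each group is the mean ± SD of the 3 medians, and n is the number of genes. Experiment 4 (red squares) is lowest for the 45 members without paralogs and Sdhaf3 (-0.05) and highest for the 8 paralogs (0.07).

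The members were spread over the genome, with 11 on chromosome arm 2L, 9 on 2R, 13 on 3L, 10 on 3R, 1 on chromosome 4 and 10 on X. The medians of the larger groups ran from -0.05 on 2R to 0.06 on X, and those of all named genes on the same arms from -0.01 on X to 0.005 on 2L. ATPsynbeta was the member on chromosome 4.

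Subunits that the prefixes miss because flies keep an older name for them were examined too. Of 8 such genes tested 0 were called by limma. At an unadjusted limma p under 0.05 there were 2, Cyt-c1 and cype, both above 0, against 10.1% of all features above 0. Cyt-c1, the cytochrome that hands electrons from complex III to cytochrome c, had 0.26, 0.13 and 0.38 (mean 0.26 ± 0.12; limma adjusted p = 0.132). The Rieske iron-sulfur protein RFeSP had 0.09 ± 0.17 and the small complex III subunit ox -0.06 ± 0.03. Cyt-c1, RFeSP and ox lay above UQCR-6.4 on every array. In complex IV, cype had 0.22 ± 0.16 and levy -0.09 ± 0.04, and sun of ATP synthase had -0.14 ± 0.08.

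Beyond the subunits, 86 genes of respiration and its support were tested, these 8 included, and 1 was called. That is 1.16%, against 2.33% of all features called in either direction and 1.68% called lower. Tim23, a channel that imports proteins across the inner membrane, was lower, with -0.47, -0.81 and -0.90 (mean -0.73 ± 0.23; limma adjusted p = 0.0407), and it was not called when any one array was left out (adjusted p from 0.103 to 0.182). The median of the 86 was -0.06, with 33 above and 53 below 0. At an unadjusted p under 0.05 there were 34 (39.5%), 24 of them below 0, against 25% of all features and 14.8% of the respiratory members.

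In the list for import and inner membrane organisation, 12 of 14 genes were below 0 (50.3% of all features were above 0), with a median of -0.18. Only Tim23 was called, against 1.68% of all features called lower. At an unadjusted limma p under 0.05 there were 7 of the 14, all 7 below 0, against 14.9% of all features below 0. Tim8, a chaperone of the intermembrane space, had -0.35, -0.41 and -0.41 (mean -0.39 ± 0.03; limma adjusted p = 0.0475), which is under the 1.5-fold minimum. The prohibitin gene Phb2 had -0.33 ± 0.06 (adjusted p = 0.0685). Of 11 carriers and porins 0 were called, with a median of -0.11 and 8 below 0. At an unadjusted limma p under 0.05 there were 3, 2 of them below 0, against 25% of all features. The uncoupling protein gene Ucp4A had -0.48 ± 0.30.

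Of 16 genes of the tricarboxylic acid cycle and pyruvate supply 0 were called, with a median of -0.04. At an unadjusted limma p under 0.05 there were 8, 7 of them below 0, against 25% of all features (14.9% below 0). The malic enzyme genes Men-b and Men had -0.34 ± 0.02 and -0.27 ± 0.02, both with nearly equal values on the 3 arrays (limma adjusted p = 0.0588 and 0.0888). Of 13 assembly factors 0 were called (5 at an unadjusted limma p under 0.05, 3 of them below 0), with a median of -0.04. The lowest of this list was bsf, an RNA-binding protein of mitochondrial transcripts, with -0.41, -1.05 and -1.03 (mean -0.83 ± 0.36; limma adjusted p = 0.0585). The highest was Lrpprc2, with 0.26, 0.17 and 0.38 (mean 0.27 ± 0.11; limma adjusted p = 0.118). Scox, which delivers copper to complex IV, had -0.42 ± 0.10 (adjusted p = 0.0530).

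Of 10 genes for making ubiquinone or feeding it electrons 0 were called, with a median of -0.05. At an unadjusted limma p under 0.05 there were 3, 2 of them below 0. Of 14 genes for mitochondrial DNA, its transcription and biogenesis 0 were called, with a median of -0.02. At an unadjusted limma p under 0.05 there were 6, 3 of them below 0. Over all features 25% had such a p, 14.9% below 0. Ets97D, a relative of the mammalian factor that drives many respiratory genes, had -0.28, -0.48 and -0.59 (mean -0.45 ± 0.16; limma adjusted p = 0.0637).

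**Figure D5:**
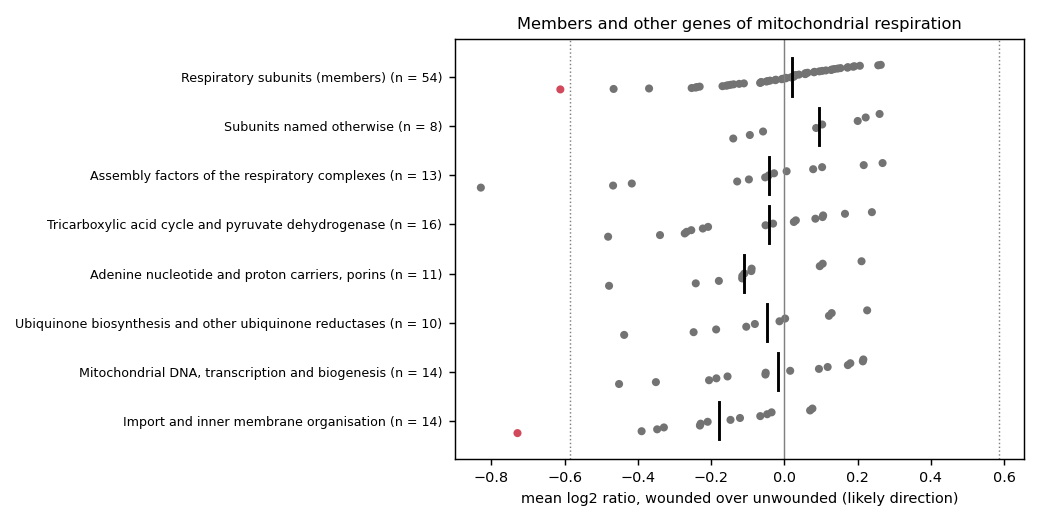
Mean log2 ratio (x axis) of each gene of the members and of the other lists of mitochondrial respiration (rows); points are genes, black bars medians, red points called genes and dotted lines 1.5-fold. UQCR-6.4 (-0.61) and Tim23 (-0.73) are the called genes, and the row for import and inner membrane organisation has the lowest median (-0.18).

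Over all features, 66 were called higher and 171 lower. Of 15 early zygotic genes 11 were called higher and 0 lower, and of 10 maternal and germ plasm genes 0 higher and 3 lower. Their medians were 1.02 and -0.15. Both lists were written with earlier results of these data known, so these counts follow in part from the choice of genes. Among the genes listed, nullo, dpn, exu and dhd are also among the paper's most changed genes. The early zygotic genes not called were hb (0.20), kni (0.25), gt (-0.12) and twi (-0.04). Of 9 markers of later tissues 0 were called by limma. At an unadjusted limma p under 0.05 there were 3, all 3 below 0, against 14.9% of all features below 0. The table holds ratios and no levels, so that absence of a tissue cannot be read from it. Whether the stage of the embryos has a part in the value of UQCR-6.4 was not tested.

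The gene table lists 91 genes with these prefixes, and 36 of them have no probe of their own in the annotation used here. They include SdhA, ND-30, ND-49, UQCR-C1, UQCR-C2, COX5A, ATPsynCF6 and the mitochondrially encoded COX1, COX2 and COX3, and 15 are paralogs named with L. Apart from the clone shared by UQCR-6.4 and CG42382, 3 further clones name one of the 36 together with another gene. The clone for ATPsynCF6 and CadN had -0.20 ± 0.06, that for COX5A and CG4666 -0.14 ± 0.13, and that for COX6B and CG18809 -0.61 ± 0.94, with limma adjusted p of 0.161, 0.321 and 0.345.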

How the data were processed

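RNA of wounded and unwounded embryos was compared on 3 spotted cDNA arrays, 1 per experiment. The deposited log2 ratios were made by the authors. By their methods, spots near background, dim or marked questionable were dropped. The remaining ratios were put on the log2 scale, and loess normalization followed, with limma. Of 12144 probes, 96, 269 and 148 had an empty cell in experiments 3, 4 and 5. Whether spots near background remain among the values was not tested. Loess sets the bulk of ratios near 0, so a shift shared by most transcripts is not seen. Spot brightness was not used here, and the number of arrays limits precision. The series' design calls the experiments independent; whether they used separate fly cultures is not given in the sources used here.

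Probes were named through the platform annotation, updated by gene identifier (9746 probes), symbol (22) or synonym (138) with NCBI RefSeq's Release 6 gene table; 11 kept their name, 625 had several symbols and 1442 none. The 160 control spots were left out. Probes of a gene with values on all 3 arrays were averaged. The mean was tested against 0 in limma 3.58.1 (R 4.3.3), two-sided, with moderated variances and Benjamini-Hochberg adjustment over 10183 features; the test was tried on simulated data. Members and gene lists were chosen with earlier results of these data known. Per-array values are given for called members, the extremes of each complex, genes whose clones disagree, and paralog pairs; other genes were named after their values were seen. A planned search of promoters for motifs was not run, as no promoter sequence was used here.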

Additional observations from a re-analysis of the deposited data

How the results depend on the processing

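The call for UQCR-6.4 depended on the settings. It was lost when the 3 arrays were scaled to 1 spread (-0.63; limma adjusted p = 0.0722), in a test against a 1.5-fold change (adjusted p = 1), with each array left out in turn (0 to 0 members called; means from -0.68 to -0.53), and with both of its clones averaged (-0.34, 0 members called, chosen after seeing the data). It was kept with each probe on its own, features on at least 2 arrays, centred arrays, array weights and robust variances (adjusted p from 0.0321 to 0.0460), with no minimum fold and at an adjusted p under 0.10. Over the whole table, scaled arrays, the test against a 1.5-fold change and each left-out array gave 0 calls, 0 higher and 0 lower (2543, 118 and 1473 to 2446 features with an unadjusted p under 0.05). With no minimum fold 410 were called, 322 of them lower, and at an adjusted p under 0.10, 115 were called higher. The opposite sign gives 171 higher and 66 lower, with 1 member higher and 0 lower, and medians of 0.0526 for complex II and -0.0256 for complex III. Without paralogs and Sdhaf3, complex II had 0.0311.

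Of 38 members named with values, 7 changed sign in some setting, and none of these 7 was called. With each array left out in turn, ATPsynbetaL ran from -0.1968 to 0.006, ND-B14.5A from -0.1484 to 0.0715, ND-PDSW from -0.7423 to 0.0661, Sdhaf3 from -0.1208 to 0.06, ND-24L from -0.0209 to 0.2481, COX7C from -0.0851 to 0.0099 and COX5B from -0.004 to 0.0203. ND-PDSW without clone GM03559 had 0.0202, and with array weights Sdhaf3 had 0.0014 and COX7C 0.0051. Over all 54 members, 14 changed sign with some array left out. Of 15 other genes named with all settings run, RFeSP alone changed sign (-0.0127 to 0.1438 with each array left out). Tim23 lost its call with the arrays scaled, in the test against a 1.5-fold change and without each array, Tim8 was called with no minimum fold, and bsf at an adjusted p under 0.10. The cause was not tested. The opposite sign was not run gene by gene, as it turns every value. The test is itself paired, since each ratio sets the wounded against the unwounded embryos of 1 experiment, so no further replicate block was fitted.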
